A study of Homo sapiens with 8 samples.

Results

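Arginine is made, cleaved and used as a methyl acceptor by separate sets of enzymes, and 10 of their genes were followed here by name in a human monocytic line with an inducible arginine transporter. The genes are 4 of arginine metabolism (ASS1, ASL, ARG2 and CPS1) and 6 protein arginine methyltransferases (PRMT1, PRMT3, CARM1, PRMT5, PRMT6 and PRMT7). They were found by matching Entrez gene numbers to symbols, and are 10 of the 22653 entries listed over the series. All 10 were listed in all 8 libraries and passed the filter on low counts. The cells were U937, a monocytic line, with SLC19A1, a folate carrier that also imports cyclic dinucleotides, knocked out (SLC19A1-/-) in every group. A tetracycline-regulated, Flag-tagged SLC7A2 or SLC7A1, both of them carriers of arginine and lysine, had been added to make 2 lines. The 4 groups were the SLC7A2 line with 1 µg/mL doxycycline (dox) for 24 h, the SLC7A2 line without dox, the SLC7A1 line with the same dox treatment and the SLC7A1 line without dox, with 2 poly(A) RNA libraries in each. The comparisons bear on how these transcripts stand once either carrier is induced. No line lacking a construct received dox, and the labels do not say whether a line is 1 clone, so effects of the drug and of the transporter, or of the construct and of the clone, cannot be told apart.

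Arginine comes from the diet, from protein breakdown and from citrulline. ASS1, argininosuccinate synthase, joins citrulline to aspartate, and ASL, argininosuccinate lyase, splits the product into arginine and fumarate. Arginase, of which ARG2 is the mitochondrial form, cleaves arginine into ornithine and urea. CPS1, carbamoyl phosphate synthase, starts the urea cycle from ammonia and is best known from liver and intestine. Arginine residues in proteins are methylated with S-adenosylmethionine as the donor. PRMT1, PRMT3, CARM1 (PRMT4) and PRMT6 make asymmetric dimethylarginine, PRMT5 makes symmetric dimethylarginine and PRMT7 makes monomethylarginine. Many of the proteins they modify bind RNA or are histones.

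Each library held 17309132 to 18441833 expected counts. The entry for the Flag-tagged SLC7A2 had 264 and 4947 CPM (counts scaled to the library total) in the dox-treated SLC7A2 line and 0.563 and 9.65 CPM in that line without dox. The entry for the tagged SLC7A1 had 845 and 367 CPM in the dox-treated SLC7A1 line and 0.264 and 0 CPM in that line without dox. The 2 induced SLC7A2 libraries thus differed widely in their construct. SLC19A1 RNA stood at 120.3 to 163 CPM in the 8 libraries. There is no unedited line to set it against, so it does not check the knockout. All 10 monocytic and myeloid markers were listed, with summed levels of 1834 to 3011 TPM. The largest part was ELANE, at 540.5 to 1738 TPM. MPO averaged 0.32 TPM and CSF1R 0.20 TPM, and CSF1R was listed in 7 of the 8 libraries. All 5 fibroblast markers were listed, and they summed to 0.73 and 1.39 TPM in the dox-treated SLC7A2 line and to 2.01 and 14.7 TPM without dox, against 0.64 and 1.21 TPM in the dox-treated SLC7A1 line and 0.69 and 0.85 TPM without dox. The library of 14.7 TPM was number 2 of its group. The 3 erythroid markers were not listed, and the 5 T cell markers summed to at most 0.31 TPM. Epithelial markers summed to 1.74 to 6.26 TPM, and B cell markers to 20.7 to 34.2 TPM, nearly all of it CD79A. In bulk libraries, fewer cells of a type and less RNA per cell cannot be told apart.

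The 10 genes spanned a wide range of levels in TPM, a unit that scales a count by transcript length and depth. PRMT1 was highest at 583 ± 90.1 TPM (SD over all 8 libraries), and ASS1 followed at 346 ± 79.8 TPM. PRMT5 had 97.1 ± 17.7 TPM, ASL had 55.9 ± 7.43 TPM and CARM1 had 45.0 ± 6.35 TPM. These 5 genes lay above 79.2% or more of the 11567 tested genes with a symbol, and PRMT1 above 98.0% of them. PRMT7 had 30.9 ± 3.86 TPM, PRMT3 had 13.7 ± 2.72 TPM and PRMT6 had 7.47 ± 2.24 TPM. ARG2 at 3.53 ± 0.321 TPM and CPS1 at 2.76 ± 0.513 TPM were lowest. CPS1 lay above 26.0% of the genes tested. In every library each gene was above the next in this order, apart from ARG2, which was above CPS1 in 7 of 8. Neighbours whose ranges over the 8 libraries overlapped were ASL and CARM1, PRMT3 and PRMT6, and ARG2 and CPS1. PRMT1 held 73.0% to 76.4% of the summed TPM of the 6 methyltransferases, and PRMT5 held 11.6% to 13.8%. The order by the deposited FPKM was the same for all 10.

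**Figure D1:**
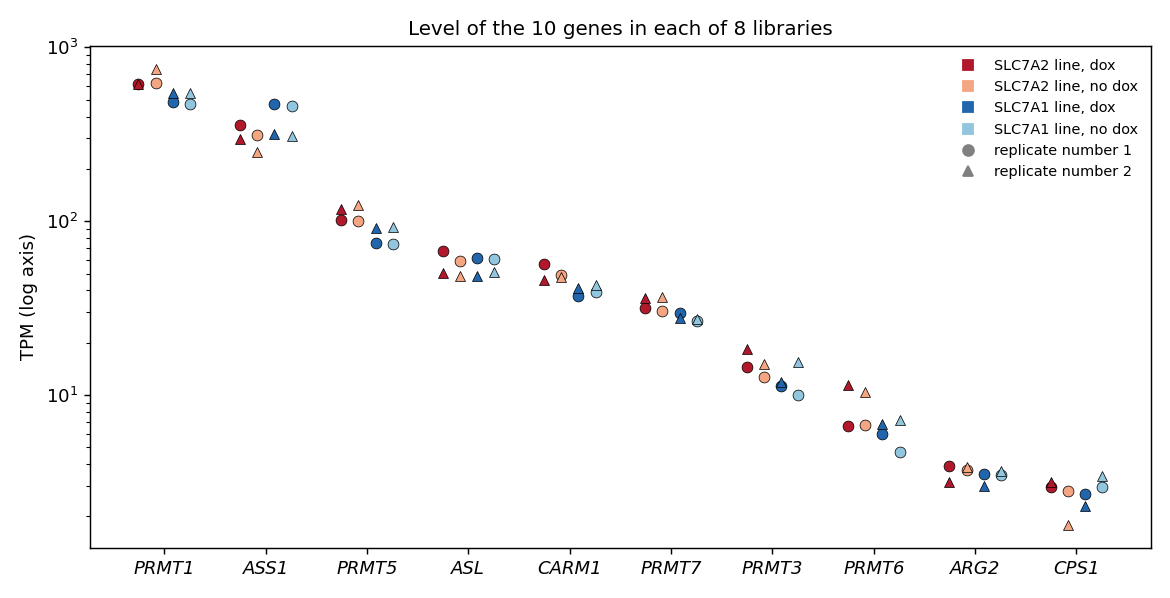
Level of the 10 genes in TPM (log axis), with 1 point per library, coloured by group and shaped by replicate number. PRMT1 and ASS1 stand above the other 8 genes in every library, and ARG2 and CPS1 lie lowest, at 1.79 to 3.88 TPM.

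The genes lie on 8 chromosomes, with PRMT1 and CARM1 both on 19 and ARG2 and PRMT5 both on 14. In the RefSeq gene table (GRCh38.p14) ASS1 spans chr9:130444707-130501274, PRMT1 chr19:49676153-49688447 and PRMT5 chr14:22920529-22929376. Some counts are uncertain because no source used here says whether reads were counted by strand. In GENCODE 29, ARG2 overlaps VTI1B (397 to 703 expected counts per library) and CARM1 overlaps YIPF2 (568 to 1128 expected counts), each on the opposite strand. PRMT5 overlaps an antisense RNA, PRMT1 shares its strand with ADM5, and ASL shares its strand with AC068533.4, a protein-coding annotation, none of them listed in the files. ASS1 has many processed pseudogenes in the annotation, none listed in the files either. Such a copy may have had no reads or may have been missing from the authors' reference. Whether reads from these copies were counted for ASS1 is therefore not known.

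The 250 bases upstream of the RefSeq start (build GRCh38.p14) were read for all 10 genes. They are printed for the 3 whose windows held no exon of GENCODE 29, namely ASS1, which varied most between libraries, CPS1, the lowest of the 10, and PRMT6, which had the highest fold change between lines. Each runs 5′ to 3′ on the gene's strand, and capitals mark the GC box letters GGGCGG and the CCAAT box letters CCAAT on either strand. ASS1 lies at chr9:130444457-130444706, CPS1 at chr2:210593105-210593354 and PRMT6 at chr1:107056424-107056673, all on the plus strand.
ASS1: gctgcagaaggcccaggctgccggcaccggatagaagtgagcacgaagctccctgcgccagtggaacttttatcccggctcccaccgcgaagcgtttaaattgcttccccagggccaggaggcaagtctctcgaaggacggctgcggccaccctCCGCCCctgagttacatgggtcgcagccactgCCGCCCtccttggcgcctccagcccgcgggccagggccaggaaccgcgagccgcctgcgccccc
CPS1: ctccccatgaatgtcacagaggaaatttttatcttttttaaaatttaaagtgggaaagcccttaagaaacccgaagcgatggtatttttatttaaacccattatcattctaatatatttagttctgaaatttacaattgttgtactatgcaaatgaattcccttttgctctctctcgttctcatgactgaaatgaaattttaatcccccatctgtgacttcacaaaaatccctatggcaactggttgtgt
PRMT6: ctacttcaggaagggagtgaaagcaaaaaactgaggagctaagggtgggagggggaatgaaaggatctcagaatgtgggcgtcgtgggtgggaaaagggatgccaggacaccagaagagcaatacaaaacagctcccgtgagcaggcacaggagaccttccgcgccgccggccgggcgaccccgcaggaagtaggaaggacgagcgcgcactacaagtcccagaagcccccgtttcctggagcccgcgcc
The ASS1 window held 68.4% G and C, 21 CpG and 2 GC boxes, and the PRMT6 window held 60.4%, 16 CpG and neither motif. The CPS1 window held 33.6% and 3 CpG, against a median of 58% and 11 CpG over 35116 such windows of all genes. The other windows, those of the remaining 9 genes, held 55.6% to 81.6%. The start the table gives for CPS1 is far inside the gene, which begins at 210477685, so this window belongs to 1 of its start sites. The bases just after the ASS1 start matched no GENCODE 29 transcript of ASS1, unlike those of the other 9 genes, so that start is less certain. GC boxes were present in 7 of the 10 windows and in 42.6% of all windows, and CCAAT in 4 of the 10 and in 32.0% of all. The E-box letters CACGTG were in 1 window, that of PRMT3, and in 6.35% of all. TGATGNAA, a form of the amino acid response element, was in none of the 10 and in 3.14% of all, and TATAAA was in none of the 10 and in 10.7% of all. Matches that overlapped were each counted, and a match is a description of letters only.

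Between the lines no gene of the 10 passed the test. The fitted log2 fold change (SLC7A2 line over SLC7A1 line) was above 0 for all 6 methyltransferases, with a median of 0.19, and below 0 for all 4 genes of arginine metabolism, with a median of -0.17, though ASL at 0.02 and ARG2 at 0.07 were above 0 on the log2(TPM + 1) scale, where the median of all entries was 0.088. The median over all 17503 entries was -0.0037 in the fit to counts, where 49.5% of all entries were above 0. With edgeR's quasi-likelihood test and Benjamini-Hochberg adjustment, 0 of the 10 were called, as were 0% of all entries, and the lowest adjusted p of the 10 was 0.371. At an unadjusted p under 0.05 there were 2 of the 10, ASS1 and PRMT5, against 12.8% of all entries. DESeq2 without a block called 0 of the 10 and 2.12% of the entries it tested.

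ASS1 was the most variable of the 10, with an SD of 0.39 in log2 CPM over the 8 libraries. In TMM-normalised CPM, used for the comparisons from here on, it had 377 and 275 CPM in the dox-treated SLC7A2 line and 339.7 and 250.6 CPM in that line without dox, against 517 and 362 CPM in the dox-treated SLC7A1 line and 543 and 331 CPM in that line without dox. The number 1 library was the higher of the pair in all 4 groups, and the lines overlapped, since the number 1 libraries of the SLC7A2 line reached the range of the number 2 libraries of the SLC7A1 line. Among libraries of the same number, each of the SLC7A2 line was below each of the SLC7A1 line. The labels do not say what a number shares across lines, and the share of all entries separated by this split was not counted. The mean was 311 ± 58.3 CPM in the SLC7A2 line and 438 ± 107 CPM in the SLC7A1 line (SD over 4 libraries each). The log2 fold change was -0.50 ± 0.20 (SE), with an unadjusted p of 0.035 and an adjusted p of 0.372 by edgeR, so ASS1 was not called. It was -0.29 ± 0.23 (SE) without both SLC7A2 line libraries numbered 2, and -0.33 ± 0.19 (SE) without the SLC7A1 line library without dox, number 1. ASL, the next enzyme on the path, had 109, 70.1, 98.0 and 73.7 CPM in the SLC7A2 line (dox first, then no dox) and 102, 83.8, 109 and 83.0 CPM in the SLC7A1 line. The lines overlapped throughout, with a log2 fold change of -0.11 ± 0.17 (SE), below the median of all entries on the count scale and on the log2(TPM + 1) scale. Without both SLC7A2 line libraries numbered 2 it was 0.13 ± 0.15 (SE).

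Set against each other in TPM, ASS1 stood at 5.26 and 5.90 times ASL in the dox-treated SLC7A2 line and 5.27 and 5.17 times without dox, against 7.69 and 6.54 times in the dox-treated SLC7A1 line and 7.53 and 6.08 times without dox. The lines did not overlap in this ratio, which was picked after its values were seen and was not tested. The share of other gene pairs whose ratio separates the lines was not counted. ARG2 stayed between 3.79 and 5.34 CPM in the 4 libraries of the SLC7A2 line and between 4.45 and 5.33 CPM in those of the SLC7A1 line. Its expected counts were 74 to 94 per library, the fewest of the 10. Its log2 fold change between lines was -0.04 ± 0.18 (SE), below the median of all entries on both scales, and 0.06 without the dox-treated SLC7A2 line library of number 2. CPS1 had 13.6, 12.7, 13.2 and 7.99 CPM in the SLC7A2 line and 12.9, 11.5, 15.1 and 16.1 CPM in the SLC7A1 line, in the same order of groups. The library of 7.99 CPM, the SLC7A2 line without dox, number 2, lay below the other 7, which ran from 11.5 to 16.1 CPM, and the log2 fold change was -0.22 ± 0.20 (SE). It was -0.03 ± 0.14 (SE) without that library. The same library also held the lowest ASS1 and the highest PRMT1 of the 8 and the high fibroblast marker sum given above. The part of those markers in these values was not tested.

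Of the methyltransferases, PRMT5, the main source of symmetric dimethylarginine, had 173 and 175 CPM in the dox-treated SLC7A2 line and 175 and 199.5 CPM in that line without dox, against 131 and 169 CPM in the dox-treated SLC7A1 line and 140.5 and 160.0 CPM in that line without dox. All 4 libraries of the SLC7A2 line were above all 4 of the SLC7A1 line, by a narrow margin. The log2 fold change was 0.27 ± 0.11 (SE), with an unadjusted p of 0.034 and an adjusted p of 0.371 by edgeR. PRMT7, the monomethylating enzyme, did not overlap either, with 64.8 to 72.8 CPM in the SLC7A2 line and 58.5 to 64.5 CPM in the SLC7A1 line. Its log2 fold change was 0.11 ± 0.085 (SE), and 0.07 ± 0.089 (SE) without the SLC7A2 line library without dox, number 2. On the CPM scale these 2 of the 10 lay wholly higher in the SLC7A2 line, against 4.36% of all entries, and 0 of the 10 lay wholly lower, against 5.14%. On the TPM scale 4 of the 10 (PRMT1, CARM1, PRMT5 and PRMT7) lay wholly higher, against 10.2% of all entries, and 0 lay wholly lower, against 2.62%. TPM moved the median of all entries in this comparison to 0.088 on the log2 scale, so TPM differences are to be read relative to that shift.

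PRMT1, the main source of asymmetric dimethylarginine, had 524, 461, 539.9 and 609 CPM in the SLC7A2 line and 427, 502, 451 and 468 CPM in the SLC7A1 line (dox first, then no dox). The library of 461 CPM, SLC7A2 line with dox, number 2, lay inside the range of the SLC7A1 line. The log2 fold change was 0.20 ± 0.097 (SE). PRMT6, a nuclear enzyme that acts on histones, had 13.0, 19.7, 13.6 and 19.4 CPM in the SLC7A2 line and 12.1, 14.6, 10.4 and 14.4 CPM in the SLC7A1 line. It had the highest fitted log2 fold change of the 10, 0.36 ± 0.20 (SE), and 0.05 ± 0.18 (SE) without the number 2 libraries of the SLC7A2 line, which were the 2 highest of the 8. Without 1 of these it was 0.23 (no dox) or 0.24 (dox). PRMT3, a cytosolic enzyme that modifies a ribosomal protein, had 27.4, 30.7, 24.8 and 27.0 CPM in the SLC7A2 line and 22.0, 24.4, 20.8 and 29.8 CPM in the SLC7A1 line. CARM1, a transcriptional coactivator, had 142, 101, 126 and 114 CPM in the SLC7A2 line and 95.0, 112, 109 and 108 CPM in the SLC7A1 line. Both overlapped between lines, and each had a fitted log2 fold change of 0.18 (SE 0.14 for PRMT3 and 0.12 for CARM1). PRMT3 was at 0.32 ± 0.11 (SE) without the SLC7A1 line library without dox, number 2, and at 0.11 ± 0.15 (SE) without number 1 of that group. CARM1 was at 0.34 ± 0.11 (SE) without both SLC7A2 line libraries numbered 2, and at 0.07 ± 0.11 (SE) without the dox-treated SLC7A2 line library of number 1, its highest value.

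With dox none of the 10 genes was called in either line. Across both lines the fitted log2 fold changes (dox over no dox) ran from -0.16 for ARG2 to 0.08 for ASS1, with unadjusted p of 0.313 to 0.986 by edgeR. Called were 0 of the 10 and 0% of all entries, and under an unadjusted p of 0.05 there were 0 of the 10 and 1.49% of all entries. ASS1 averaged 383 ± 100.2 CPM with dox and 366 ± 125 CPM without, and PRMT1 averaged 478 ± 43.1 CPM with dox and 517 ± 72.3 CPM without (SD over 4 libraries each). The log2 fold change was 0.08 ± 0.20 (SE) for ASS1 and -0.10 ± 0.097 (SE) for PRMT1. The SE of the 10 ran from 0.085 for PRMT7 to 0.20 for CPS1, and with the replicate number as a block within a line from 0.056 for ASS1 to 0.19 for CPS1.

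Within the SLC7A2 line 0 of the 10 and 0% of all entries were called, with 0 of the 10 and 1.28% of all at an unadjusted p under 0.05. Within the SLC7A1 line 0 of the 10 and 0% of all were called, with 0 of the 10 and 1.27% of all at an unadjusted p under 0.05. For the difference between the dox effects of the lines the counts were again 0 of the 10 and 0% of all, with 0 of the 10 and 1.27% of all at an unadjusted p under 0.05. Same-numbered libraries of a line deviated together, so DESeq2 was also run with the number as a block within a line. It called 0 of the 10 in each comparison, against 0.16% of the entries in the SLC7A2 line, 0.257% in the SLC7A1 line, 0.12% for the difference and 0.671% across both lines. With the same block edgeR called 1 entry in the SLC7A2 line, 2 in the SLC7A1 line, 3 across both and 0 for the difference, and 0 of the 10 in each.

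CPS1, PRMT3 and PRMT1 had the largest fitted differences between the dox effects, and were picked for that after the values were seen. CPS1 had 13.6 and 12.7 CPM with dox and 13.2 and 7.99 CPM without in the SLC7A2 line, a log2 fold change of 0.31 ± 0.26 (SE). In the SLC7A1 line it had 12.9 and 11.5 CPM with dox and 15.1 and 16.1 CPM without, a log2 fold change of -0.35 ± 0.26 (SE). Thus both same-numbered pairs of the SLC7A2 line were higher with dox, the first by only 0.04 on the log2 scale, and both of the SLC7A1 line were lower. The difference was 0.66 ± 0.37 (SE), with an unadjusted p of 0.114 by edgeR. It was 0.34 ± 0.32 (SE) without the SLC7A2 line library without dox, number 2, and 1.07 ± 0.33 (SE) without number 1 of that group.

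PRMT3 had a log2 fold change with dox of 0.17 ± 0.21 (SE) in the SLC7A2 line and -0.12 ± 0.21 (SE) in the SLC7A1 line. The difference was 0.29 ± 0.29 (SE), and 0.0034 without the SLC7A1 line library without dox, number 2, which stood at 29.8 CPM. PRMT1 had a log2 fold change with dox of -0.22 ± 0.14 (SE) in the SLC7A2 line and 0.01 ± 0.14 (SE) in the SLC7A1 line, with a difference of -0.24 ± 0.20 (SE). In the SLC7A2 line it was -0.13 without number 2 of either group, with dox or without, and the difference ran from -0.35 to -0.12 with each of the 8 libraries left out in turn. Without both SLC7A2 line libraries numbered 2 the dox effect in that line was -0.04 and the difference -0.06. The 2 dox libraries of the SLC7A2 line lay below the 2 without dox for PRMT1 and PRMT5, and above them for PRMT3. In the SLC7A1 line PRMT1 overlapped, while CPS1 and ARG2 lay wholly lower with dox and PRMT7 wholly higher. The share of all entries that separated in this way was not counted. The 7 genes other than CPS1, PRMT3 and PRMT1 had log2 fold changes of -0.17 to 0.14 in the SLC7A2 line. In the SLC7A1 line theirs were -0.15 to 0.11. None of these had an unadjusted p by edgeR below 0.516 in the SLC7A2 line or 0.559 in the SLC7A1 line. Over the 4 same-numbered pairs 0 of the 10 genes were higher with dox in all 4, against 7.67% of all entries, and 0 were lower in all 4, against 7.06%.

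**Figure D2:**
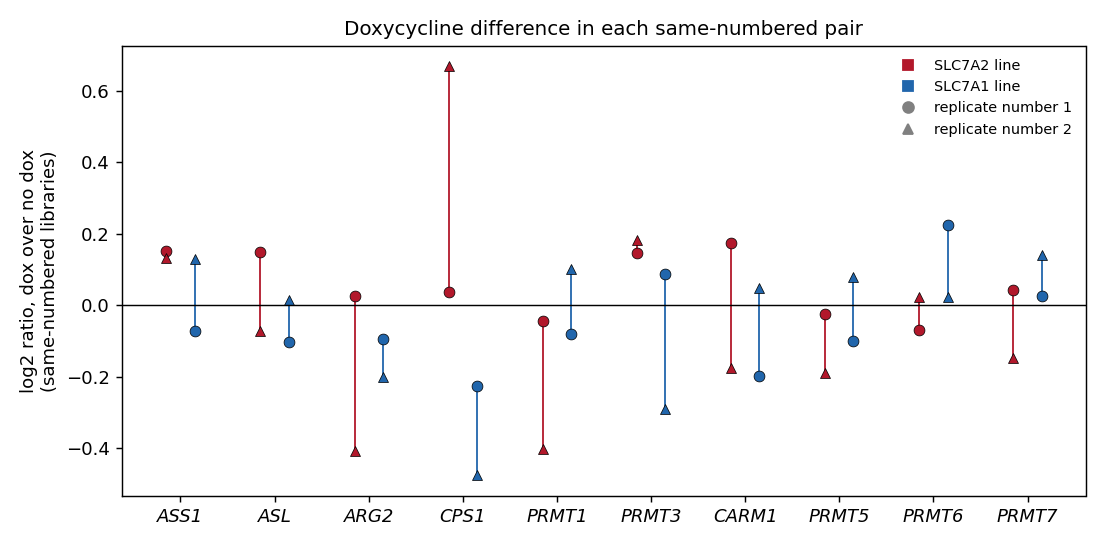
Log2 ratio of TMM-normalised CPM, dox over no dox, in each same-numbered pair of libraries (SLC7A2 line left, SLC7A1 line right for each gene, with a line joining the 2 pairs). For none of the 10 genes do all 4 pairs lie on 1 side of 0, and CPS1 lies at 0.04 and 0.67 in the SLC7A2 line and at -0.23 and -0.48 in the SLC7A1 line.

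Several of the genes differed between replicate numbers in the same direction in every group, and the labels do not say what a number marks. ASS1 had a log2 ratio, number 2 over number 1, of -0.71 to -0.44 in the 4 groups, and ASL one of -0.63 to -0.28. ARG2 was also lower in number 2 in all 4 groups, at -0.49 to -0.06. These are 3 of the 10, against 14.7% of all entries lower in number 2 in all 4 groups. PRMT6 was higher in number 2 in all 4 groups, by 0.27 to 0.60, PRMT3 by 0.13 to 0.52 and PRMT5 by 0.02 to 0.37. They are 3 of the 10, against 14.6% of all entries. CPS1, PRMT1, CARM1 and PRMT7 had ratios of both signs. For ASS1 and ASL the ratios between numbers were thus larger than the fitted dox effects. A fit with the number as a term across both lines, chosen after the data were seen, also gave number 2 against number 1. With it edgeR called 0 of the 10 and 14 of the 17503 entries. DESeq2 called 3 of the 10, against 1624 of the 10377 entries to which it gave an adjusted p.

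**Figure D3:**
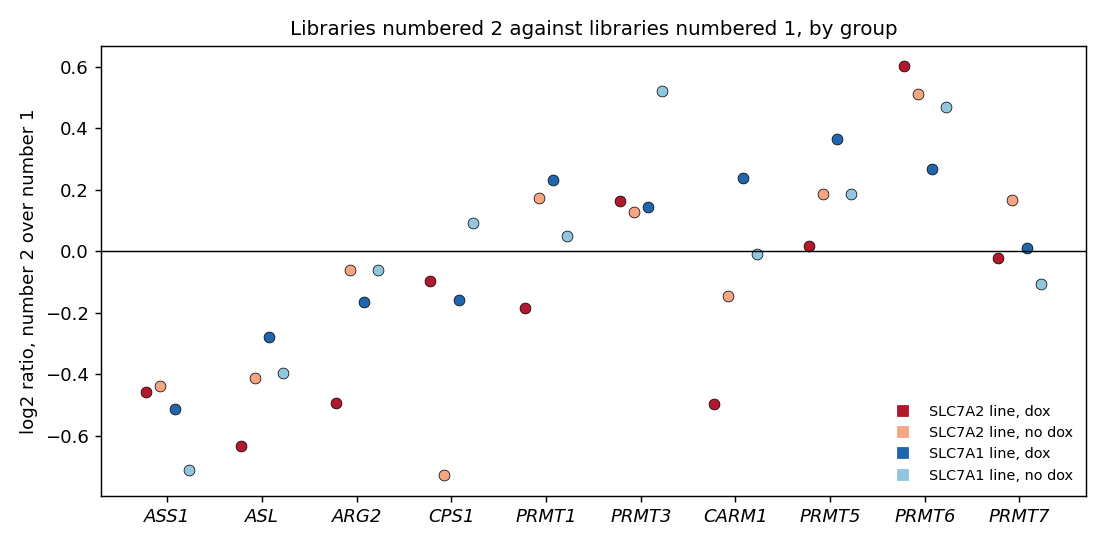
Log2 ratio of TMM-normalised CPM, library number 2 over library number 1, in each of the 4 groups. ASS1 and ASL lie below -0.2 in every group, PRMT6 lies above 0.2 in every group, and PRMT7 stays within 0.17 of 0.

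The genes nearest to ASS1 in their pattern over the 8 libraries were ECI1, a mitochondrial enzyme of fatty acid oxidation, C15orf39 and OPTN, an autophagy receptor. Likeness was the mean absolute difference of centred log2 CPM, which was 0.056 for ECI1, 0.067 for C15orf39 and 0.072 for OPTN, against a median of 0.343 over 10312 genes. ECI1 had 91.1, 60.7, 87.1 and 61.7 CPM in the SLC7A2 line and 119.9, 85.5, 127.9 and 72.5 CPM in the SLC7A1 line. It too was higher in number 1 in all 4 groups. All of these genes share the libraries and their depth, so this is a description only.

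The other genes of arginine handling gave 0 calls by edgeR in any of the 5 comparisons. Of 24 further enzymes and carriers of arginine metabolism 12 passed the filter. GAMT, which makes creatine, was highest at 158 ± 12.3 TPM and OAT, which handles ornithine, followed at 49.8 ± 11.1 TPM (SD over 8 libraries). PADI6 was not listed, and ARG1, OTC and NAGS, urea cycle genes of the liver, had 1 expected count each over all 8 libraries. Between the lines 6 of the 12 were above 0 and 6 below, with a median log2 fold change of -0.00055. GATM, which takes arginine for creatine, was picked after its values were seen as the widest of these, at -1.85 ± 0.63 (SE) between lines and 0.35 to 7.49 TPM over the libraries, with an unadjusted p of 0.018 and an adjusted p of 0.336 by edgeR.

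Of 4 other methyltransferase genes 3 passed the filter, with PRMT2 at 42.6 ± 4.08 TPM and NDUFAF7, a mitochondrial enzyme, at 10.3 ± 1.82 TPM, and PRMT8 was not listed. Between lines 2 of these 3 were above 0 and 1 below, with a median log2 fold change of 0.07. The 1 below was PRMT2, at -0.06 ± 0.079 (SE), so the direction of the 6 methyltransferases was not shared by every other one. All 6 partner genes passed, led by CLNS1A at 126 ± 16.7 TPM and COPRS at 119 ± 17.01 TPM, both of which encode proteins that bind PRMT5. WDR77, the core partner of PRMT5, had a log2 fold change between lines of 0.55 ± 0.16 (SE) and an adjusted p of 0.320 by edgeR, which did not call it. DESeq2 without a block gave WDR77 an adjusted p of 0.049 and called it. Of the 6 partner genes 3 were above 0 between lines and 3 below, with a median log2 fold change of 0.015. All 7 genes of methyl donor supply passed, led by AHCY, which clears S-adenosylhomocysteine, at 383 ± 18.7 TPM and MAT2A, which makes S-adenosylmethionine, at 96.0 ± 33.7 TPM. MTAP, the salvage enzyme often deleted in cancer, was named after its values were seen and had 6.51 to 11.7 TPM. All 17 substrates and readers passed, led by the splicing protein gene SNRPB at 2018 ± 174 TPM and FBL, the nucleolar methyltransferase fibrillarin, at 947 ± 75.3 TPM. Between lines 11 of these 17 were above 0, with a median log2 fold change of 0.11.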

How the data were processed

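RNA of U937 SLC19A1-/- cells with a tetracycline-regulated SLC7A1 or SLC7A2 was enriched for poly(A), per the labels' protocols, and sequenced as paired ends. Each library has 1 deposited file, which lists the entries with a value above 0, and a missing entry was taken as 0. The authors gave an expected count (per the file headers from RSEM, not whole), TPM, FPKM and gene lengths for each entry. The deposited TPM and FPKM are scaled by effective length and depth. TPM was used for levels and in 2 alternatives, and the deposited FPKM only to check the order of levels. Per the submitters' processing notes the build was hg38, and RSEM 1.3.1, Bowtie2 2.3.4.3, HISAT and DESeq2 1.4.5 are named there without their roles. Of 15386 Entrez numbers 15340 matched a symbol.

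Expected counts were rounded and filtered with filterByExpr (minimum count 10, minimum total 15), which left 17503 entries, then normalised by TMM. The main test was edgeR's quasi-likelihood F test (edgeR 4.0.16 under R 4.3.3), and p-values were adjusted by Benjamini-Hochberg with a threshold of 0.05. A fit of the 4 group means over 8 libraries gave dox in each line and the difference, and an additive fit of line and dox gave dox across both lines and the SLC7A2 line against the SLC7A1 line. The SE was taken from F as |log2 fold change| divided by its square root. The edgeR step was tested on simulated counts. CPM of the constructs and SLC19A1 is scaled to the library total, and other CPM by TMM. Alternatives were DESeq2 1.42.0, its size factors, no filter, Entrez entries alone, limma 3.58.1 on log2 TPM with a pseudocount of 1 or 0.1, a replicate block, and leaving out each library. Figures were drawn with matplotlib 3.10.9. Motif letters were searched in RefSeq promoter windows.

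Groups and replicate numbers come from the sample titles. Nothing in the labels says that replicates were separate cultures, so the p-values rest on a spread between libraries that may be technical only. Deviations of same-numbered libraries from their group means correlated at 0.312 in the SLC7A2 line and 0.197 in the SLC7A1 line over all tested entries, so the numbers pair libraries within a line, a pairing read from the data. No pair of libraries in a group agreed within sampling noise (chi-square per entry 20.7 to 45.6). The members and lists were chosen with earlier results of these data known. Named genes were all 10 members, list genes that were called, and otherwise up to 2 per list with the highest mean TPM. Also named were list genes not listed in the files, the 3 genes nearest to the most variable member, and genes that check the labels. The cell type markers were outside this rule, and the main edgeR test called none of them. DESeq2 without a block called the markers LYZ and COL1A2 between lines. With the block within a line it called LYZ with dox across both lines and COL1A1 with dox in the SLC7A2 line. WDR77 was named for its DESeq2 call, NDUFAF7 and COPRS as the second of their lists, and the exceptions are given beside their values.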

Additional observations from a re-analysis of the deposited data

Results flagged for a closer look

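The doxycycline effect on CPS1, the first enzyme of the urea cycle, differed in sign between the lines in every same-numbered pair. CPS1 was picked after the values were seen, as the largest fitted difference of the 10 genes. The share of all entries with this sign pattern was not counted. The log2 ratios, dox over no dox, were 0.04 and 0.67 in the SLC7A2 line and -0.23 and -0.48 in the SLC7A1 line. The difference was 0.66 on the log2 scale, SLC7A2 line minus SLC7A1 line, and the test of the difference by edgeR did not pass (unadjusted p = 0.114, adjusted p = 1.00). With the replicate number as a block within a line it was 0.70, with an unadjusted p of 0.050 and an adjusted p of 1 by edgeR. In that fit 519 of the 17503 entries had an unadjusted p under 0.05 for this difference, and 0 were called. CPS1 had 149 to 295 expected counts per library, and the lowest count was that of the SLC7A2 line without dox, number 2. Without that library the fitted dox effect in the SLC7A2 line was -0.011 and the difference was 0.34, so the opposite sign between lines rested on it.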

How the results depend on the processing

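The counts of the 10 genes called were 0 in every comparison under all alternatives other than the block across lines. Between the lines, 1 of the 10 was called by edgeR with the replicate block across lines (ASS1, -0.48, adjusted p = 0.0350), against 256 of the 17503 entries. DESeq2 with that block called 2 of the 10 (ASS1, adjusted p = 1.1e-08, and PRMT5, 0.28, adjusted p = 0.0112), against 1480 of the 13091 entries to which it gave an adjusted p. That block was chosen after seeing the data, and the labels do not say what same-numbered libraries share across lines. Their deviations correlated across lines at -0.024 to 0.15 over all entries. Over the 5355 entries averaging log2 CPM 5 or more they correlated at 0.0364 to 0.424. On those 5355 entries the correlation was 0.698 within the SLC7A1 line and 0.771 within the SLC7A2 line. Over all entries the block across lines moved the calls between lines to 256 with edgeR and 1480 with DESeq2. These calls were 0 in the main analysis, 3 without the filter and 349 with DESeq2 alone. Within a line the block changed no call among the 10. Across both lines dox called 3 entries with edgeR and the block, 106 with DESeq2 and the block, 2 without the filter and 0 in the main analysis.

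Of 531 alternative log2 fold changes 480 kept their sign and side of the threshold, 48 changed sign and 3 passed it. The sign changes were all in values that were not called. Between lines they were ASL at 0.017 and 0.017 and ARG2 at 0.073 and 0.091 with limma on TPM (pseudocounts 1 and 0.1). For dox across both lines they were ASL at -0.0029 and -0.0035 (edgeR and DESeq2, block within a line) and -0.00052 and -0.0013 (block across lines), CPS1 at 0.030 and 0.047 and CARM1 at 0.0088 and 0.0087 (limma). With pseudocount 1 the median of all entries was 0.088 between lines and 0.034 for dox across both lines, so these values lay below the median there. With each library left out in turn, or both SLC7A2 line libraries numbered 2 (added after seeing the data), ASL ran from -0.26 to 0.13 and ARG2 from -0.14 to 0.093 between lines. For dox across both lines the ranges were -0.040 to 0.25 for ASS1, -0.15 to 0.11 for ASL, -0.22 to 0.079 for CPS1, -0.049 to 0.16 for PRMT3, -0.14 to 0.058 for CARM1, -0.15 to 0.0022 for PRMT5, -0.072 to 0.17 for PRMT6 and -0.022 to 0.066 for PRMT7. CPS1 with dox in the SLC7A2 line ran from -0.011 to 0.72, and in the SLC7A1 line PRMT3 ran from -0.36 to 0.16 and PRMT1 from -0.11 to 0.13. The causes were not tested. A group of 2 libraries left with 1 was assumed to vary like the others. ARG2 and CPS1 have the fewest counts, which limits their precision, and 2 libraries a group limit that of all 10.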

Other observations

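Other genes on the fixed lists stood apart between the lines at an unadjusted p under 0.05 by edgeR without passing the adjustment, and they are given as values picked after they were seen. MTRR, which reactivates methionine synthase, had a log2 fold change (SLC7A2 line over SLC7A1 line) of 0.76 ± 0.21 (SE) and an adjusted p of 0.315. HNRNPA1, an RNA-binding protein methylated on arginine, had -0.31 ± 0.097 (SE) and an adjusted p of 0.325. RARS1, the cytosolic arginyl-tRNA synthetase, had 0.35 ± 0.14 (SE) and an adjusted p of 0.376. PADI2, which turns arginine residues into citrulline, had -0.63 ± 0.25 (SE) and an adjusted p of 0.371.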
